A study of Mus musculus with 6 samples.

Results

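The 8 troponin genes of the mouse were described in RNA sequencing libraries of C2C12 cells, a mouse myoblast line that fuses into multinucleate myotubes when serum is lowered. They were taken from the deposited count table by symbol, as the genes of 1 family: Tnnt1, Tnnt2, Tnnt3, Tnni1, Tnni2, Tnni3, Tnnc1 and Tnnc2, 8 of the 43074 genes in the table. All 8 were among the 17433 genes with enough counts to be tested. The series profiled wild-type (WT) C2C12 cells before differentiation and after 4 days in differentiation medium with 4-phenylbutyric acid (4-PBA) or with DMSO, the vehicle. Day 0 cells were untreated (Non-treated) and grown in medium with 10% fetal bovine serum. Day 4 cells were kept in medium with 5% horse serum and either DMSO or 1 mM 4-PBA. Each of the 3 groups had 2 libraries, made from 100 ng of total RNA with a directional kit, and all 6 carried batch number 1. The labels do not say whether the 2 libraries of a group came from separate cultures, so p-values measure only the spread between these samples, which may be technical.

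Troponin is the calcium switch of the striated muscle thin filament. Troponin C binds calcium released from the sarcoplasmic reticulum, troponin I holds actin and myosin apart while calcium is low, and troponin T ties both to tropomyosin. Slow skeletal, fast skeletal and cardiac muscle use different genes for each subunit. The slow genes are Tnnt1, Tnni1 and Tnnc1, of which Tnnc1 also serves the heart. The fast genes are Tnnt3, Tnni2 and Tnnc2. The cardiac genes are Tnnt2 and Tnni3, and Tnnt2 is also known from embryonic and regenerating skeletal muscle.

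The troponin genes lie partly in pairs of one I and one T gene, and the promoter windows of 2 such pairs are printed because their members differed widely in how far they rose. In the RefSeq annotation of GRCm38.p6, Tnnt1 and Tnni3 are neighbours on chromosome 7 with no gene between them. On chromosome 1, Tnni1 and Tnnt2 are separated by Lad1. Each window runs from 250 bases before to 50 after an annotated transcript start, reads 5′ to 3′ on the gene's strand, and has in capitals every match to a motif searched on both strands. The motifs were the E-box CANNTG, bound by myogenic factors such as MyoD and myogenin, the MCAT element CATTCC, bound by TEAD factors, the TATA box TATAAA, the MEF2 site and the CArG box. The windows are chr7:4515926-4516225 (minus strand) for Tnnt1, chr7:4522479-4522778 (minus strand) for Tnni3, chr1:135799171-135799470 (plus strand) for Tnni1 and chr1:135836084-135836383 (plus strand) for Tnnt2.
Tnnt1: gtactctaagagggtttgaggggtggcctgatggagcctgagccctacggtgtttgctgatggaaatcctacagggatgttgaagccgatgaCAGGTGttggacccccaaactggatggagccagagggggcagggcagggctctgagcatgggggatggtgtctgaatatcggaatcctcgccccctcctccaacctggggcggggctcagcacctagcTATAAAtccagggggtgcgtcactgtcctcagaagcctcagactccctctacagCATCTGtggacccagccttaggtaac
Tnni3: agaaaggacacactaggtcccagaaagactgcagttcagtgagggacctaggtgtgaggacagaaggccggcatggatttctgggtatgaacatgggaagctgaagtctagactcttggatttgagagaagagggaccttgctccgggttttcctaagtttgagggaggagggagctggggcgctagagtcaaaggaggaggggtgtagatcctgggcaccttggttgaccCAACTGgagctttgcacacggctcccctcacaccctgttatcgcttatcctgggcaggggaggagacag
Tnni1: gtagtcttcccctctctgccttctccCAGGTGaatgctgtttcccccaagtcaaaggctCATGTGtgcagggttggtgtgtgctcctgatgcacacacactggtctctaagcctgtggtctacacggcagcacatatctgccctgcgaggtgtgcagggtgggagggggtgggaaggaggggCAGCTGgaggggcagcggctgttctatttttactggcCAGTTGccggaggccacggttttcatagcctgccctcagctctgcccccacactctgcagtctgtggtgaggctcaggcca
Tnnt2: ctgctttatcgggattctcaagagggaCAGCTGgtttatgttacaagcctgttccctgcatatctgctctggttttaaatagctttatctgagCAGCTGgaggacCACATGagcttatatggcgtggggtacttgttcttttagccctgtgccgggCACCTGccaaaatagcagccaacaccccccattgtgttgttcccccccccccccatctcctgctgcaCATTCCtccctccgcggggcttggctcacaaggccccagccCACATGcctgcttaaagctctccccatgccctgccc

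The table of RefSeq promoter windows held 8 windows for 6 of the 8 genes, with 2 each for Tnnt2 and Tnni1, and none for Tnnt3 or Tnni2. An E-box was present in all 8 windows, a motif found in 72.3% of the 32851 windows in the table. The 2 Tnni1 windows overlap, and the E-boxes of the one not printed also lie in the printed one. The Tnni3 window held 1 E-box, at -19 to -14 from the start, and the Tnnt2 window printed above held 5. The printed Tnni1 window held 4 and its other window 2. The other Tnnt2 window and those of Tnnt1, Tnnc1 and Tnnc2 held 2 each. The Tnnt1 window held the only match to TATAAA, at -30 to -25, and 13.6% of all windows hold a match. The Tnnc1 window has the letters tatataag before the start, which this string does not match. An MCAT element was present at -27 to -22 in the printed Tnnt2 window and at -58 to -53, on the opposite strand, in the Tnnc1 window (14.7% of all windows). No MEF2 site or CArG box was matched in these 8 windows, against 3.19% and 1.63% of all windows. A match is a description of the letters only.

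**Figure D1:**
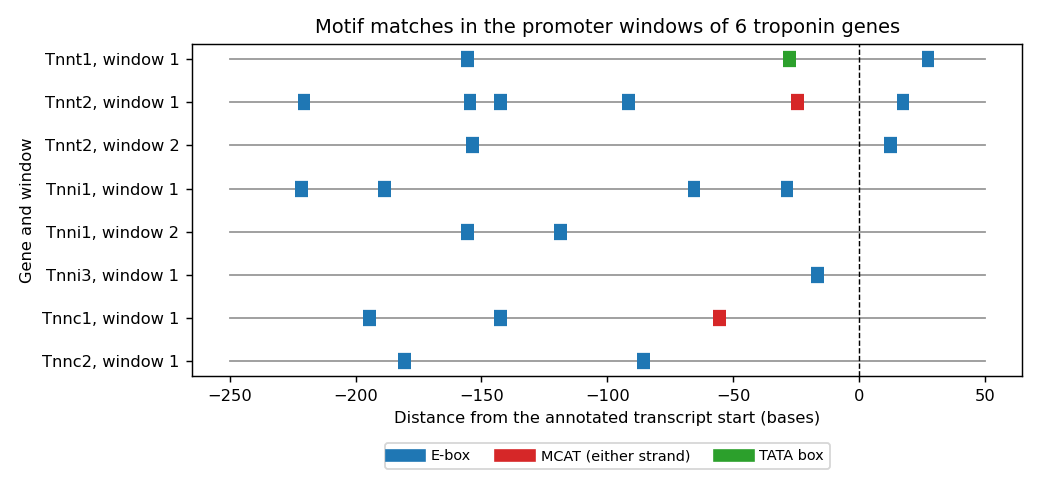
Motif matches in the 8 promoter windows of 6 troponin genes; the x axis is the distance from the annotated transcript start in bases, and each coloured block is 1 match. Every window holds at least 1 E-box, the TATAAA match lies in the Tnnt1 window and the MCAT elements lie in the first Tnnt2 window and the Tnnc1 window.

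Total counts ranged from 47908926 to 74697397 per library. Markers of myoblasts and myotubes were present, given in CPM, the normalised count scaled to library size. The sum of 7 myotube markers was 504 to 516 CPM at day 0, 3694 to 3933 CPM with DMSO and 3672 to 3716 CPM with 4-PBA. Myh3 was the largest part of it at day 4. The sum of 6 myoblast markers also rose, from 1375 to 1390 CPM at day 0 to 2944 to 2986 CPM with DMSO. It was 2840 to 2846 CPM with 4-PBA, and Des was its largest part in every group. Of the 8 cardiomyocyte markers, Gata4 made up most of a sum that stayed between 30.5 and 34.2 CPM in every library. The defining cardiac genes Tbx5, Hand2, Nppa and Tbx20 were each below 0.13 CPM in every library, and Nkx2-5 was at 0.795 to 1.73 CPM. Myh6, the cardiac alpha myosin heavy chain, was at 0.142 to 0.165 CPM at day 0 and 6.94 to 10.5 CPM at day 4. In such bulk samples, fewer cells of a type and less RNA per cell cannot be told apart.

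All 8 troponin genes rose over 4 days of differentiation with DMSO, by 2.30-fold for Tnni3 and by 10.5-fold to 84.7-fold for the other 7. Together they took 0.0115% ± 3.97e-05 (SD, n = 2) of all counts at day 0 and 0.284% ± 0.0184 (SD, n = 2) at day 4 with DMSO. The quasi-likelihood test of edgeR with Benjamini-Hochberg adjustment over 17433 genes called 8 of 8 higher, against 33.8% of all tested genes called higher and 66.3% called in either direction. The 2 groups did not overlap for any of the 8 genes, against 42% of all tested genes that were apart and higher. The median log2 fold change of the 8 was 5.49, beside 0.023 over all tested genes.

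Among the troponin T genes, which anchor the complex to tropomyosin, Tnnt2 was the most abundant before differentiation, also per length. Tnnt2 stood at 70.7 and 70.3 CPM at day 0 and at 700.1 and 775.9 CPM with DMSO at day 4. Its day 0 libraries agreed closely and every day 4 library was far above them. This was a rise of 3.39 ± 0.040 (SE) on the log2 scale (adjusted p = 8.81e-26 in edgeR). The slow gene Tnnt1 was at 6.36 and 6.15 CPM at day 0 and at 201 and 222 CPM with DMSO, a log2 fold change of 5.08 ± 0.056 (SE). The fast gene Tnnt3 went from 8.93 and 8.53 CPM to 456 and 516 CPM, a log2 fold change of 5.80 ± 0.069 (SE). For both genes the day 4 libraries lay far above those of day 0.

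Among the troponin I genes, which inhibit the actin and myosin interaction, the 2 skeletal genes rose steeply and the cardiac gene rose from one low level to another. Tnni1, the slow gene, was at 7.26 and 8.40 CPM at day 0 and at 479.6 and 502 CPM with DMSO, a log2 fold change of 5.96 ± 0.053 (SE). Tnni2, the fast gene, was at 3.68 and 3.75 CPM and then at 186 and 207 CPM, a log2 fold change of 5.72 ± 0.068 (SE). Both groups were far apart for each gene. Tnni3, the adult heart gene, was at 0.576 and 0.627 CPM at day 0 and at 1.28 and 1.50 CPM with DMSO. These are 28 and 44 raw counts at day 0 and 81 and 111 with DMSO, so counting error weighs on this gene more than on the others. The rise of Tnni3 was 1.20 ± 0.28 (SE) on the log2 scale, with a 95% interval of 0.64 to 1.77 (adjusted p = 2.71e-04 in edgeR). In the GENCODE M21 annotation Tnni3 shares 86 exonic bases with Dnaaf3 on the same strand, and Dnaaf3 was at 2.76 to 4.01 CPM in all libraries. The part of that overlap in the Tnni3 counts was not tested.

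Of the troponin C genes, which bind calcium, the slow and cardiac gene Tnnc1 started higher and the fast gene Tnnc2 rose further. Tnnc1 was at 13.5 and 14.3 CPM at day 0 and at 518 and 552 CPM with DMSO, a log2 fold change of 5.26 ± 0.043 (SE). Tnnc2 was at 2.20 and 2.51 CPM at day 0 and at 193 and 209.8 CPM with DMSO. Its log2 fold change of 6.40 ± 0.066 (SE) was the largest of the 8 and ranked 95 among all tested genes. Tnni3 ranked 2126, and the other 6 ranked between 139 and 508. Exons of Tnnc2 overlap those of Ube2c, a gene of the cell cycle, on the opposite strand over 592 bases. Whether counting used strand is not given in the sources used here. Ube2c fell from 164 and 164 CPM at day 0 to 39.8 and 32.6 CPM with DMSO (-2.18 ± 0.072 SE on the log2 scale, edgeR adjusted p = 2.57e-10), opposite in direction to Tnnc2.

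**Figure D2:**
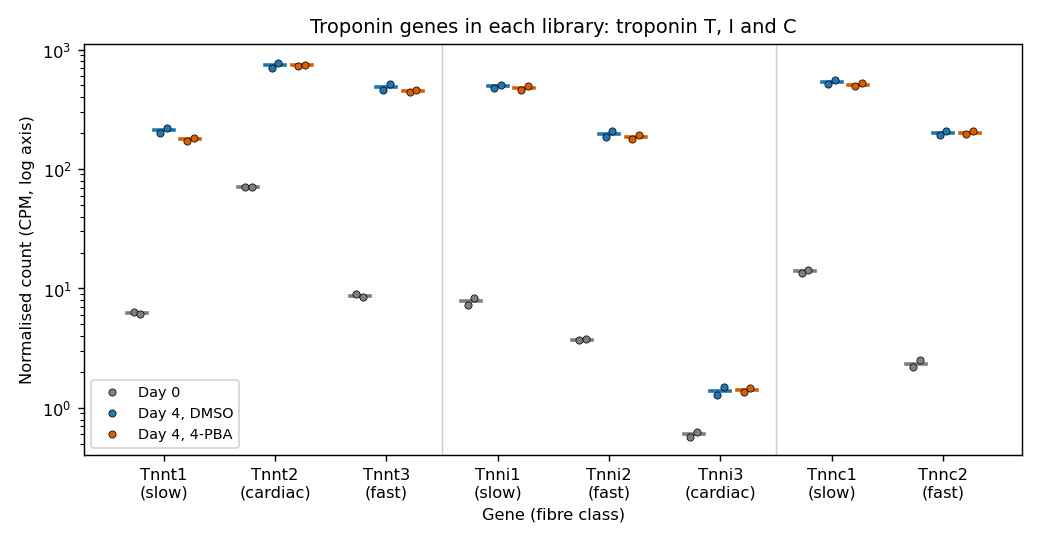
Normalised counts (CPM, log axis) of the 8 troponin genes in each library, with the mean of each group as a short line; grey is day 0, blue is DMSO and orange is 4-PBA at day 4. Day 4 lies above day 0 for every gene, and Tnni3 stays at or below 1.50 CPM. Blue and orange lie close together, without overlap for Tnnt1 and, by a narrow gap, for Tnnt3.

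With 4-PBA, Tnnt1 was the one troponin gene called changed against DMSO at day 4. Tnnt1 stood at 201 and 222 CPM with DMSO and at 173 and 182 CPM with 4-PBA, and the groups did not overlap. It was 1.19-fold lower with 4-PBA, a log2 fold change of -0.25 ± 0.040 (SE) with a 95% interval of -0.34 to -0.17 (adjusted p = 2.16e-04 in edgeR). That is 1 of 8 genes called, against 4.9% of all tested genes in either direction and 2.78% lower. At an unadjusted p under 0.05, 3 of the 8 were lower (Tnnt1, Tnnt3 and Tnnc1) and 0 higher. Of all 17433 tested genes, 2908 were under that unadjusted cutoff in either direction. The call held in all 15 alternative analyses, with log2 fold changes from -0.33 to -0.18. Of the 7 myotube markers, 5 were lower with 4-PBA without overlap of the libraries, beside 22.5% of all tested genes. Of these 5 markers 3 were called lower, and none of the 7 was called higher. The acetylcholine receptor subunit Chrng was at 179 and 202 CPM with DMSO and at 148 and 147 CPM with 4-PBA (log2 fold change -0.37), and the fusion genes Mymx (-0.35) and Mymk (-0.17) were the other 2 called. Ckm (-0.17) and Chrna1 (-0.070) were apart but not called, and Myog and Myh3 overlapped. Of the 6 myoblast markers, Cdh15 (0.11) was called higher and Des (-0.11) lower, and 2 were apart in each direction. The part of these markers in the Tnnt1 result was not tested. Tnnt1 was still 28.4-fold above its day 0 level with 4-PBA.

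Tnnt3, the fast troponin T, was at 456 and 516 CPM with DMSO and at 438 and 455 CPM with 4-PBA. Its groups did not overlap either, by a narrow gap, and the log2 fold change of -0.12 (95% interval -0.23 to -0.011) missed the threshold after adjustment (adjusted p = 0.245 in edgeR). Such gaps are common here: 45.5% of all tested genes had none of their libraries overlapping between 4-PBA and DMSO, 22.5% with 4-PBA lower, beside 2 of the 8 troponin genes, both lower. Without DMSO replicate 1, the lower of the 2 for all 8 genes, Tnnt3 was called (-0.21, adjusted p = 1.47e-07), as were Tnni2 (-0.16, adjusted p = 0.00225) and Tnnc1 (-0.12, adjusted p = 0.00543). Without any filter beyond 1 count Tnnt3 was also called (adjusted p = 0.00452).

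The remaining 6 genes had overlapping groups and were not called. Tnnt2 was at 729.6 and 741.8 CPM with 4-PBA, inside the range of the DMSO libraries, with a 95% interval of the log2 difference from -0.079 to 0.070. Tnnc2 was at 195 and 209 CPM, also inside the DMSO range, with an interval of -0.080 to 0.086. For Tnni1, at 462 and 492 CPM, the interval was -0.12 to 0.039. For Tnni2, at 178 and 192 CPM, it was -0.18 to 0.0097. Tnnc1 was at 494 and 520.2 CPM, and its interval of -0.14 to -0.0093 lay below 0 before adjustment (adjusted p = 0.215 in edgeR). Tnni3 was at 1.35 and 1.47 CPM with the widest interval, -0.49 to 0.52, so a change within these bounds was not detectable at this depth. The median log2 fold change of the 8 was -0.059, beside 0.0021 over all tested genes.

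**Figure D3:**
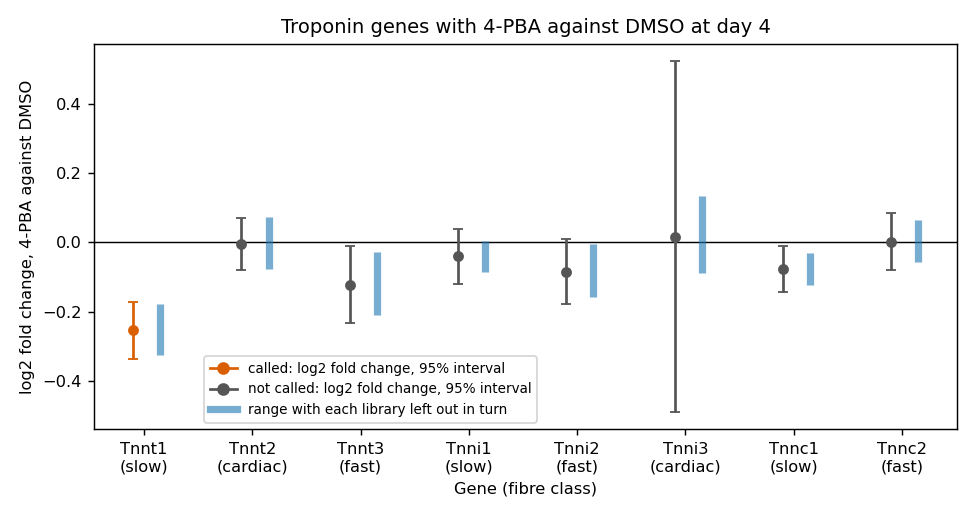
Log2 fold change of each troponin gene with 4-PBA against DMSO at day 4 (y axis), with its 95% interval as an error bar; the blue bar beside it spans the values with each library left out in turn. Tnnt1, in orange, is the one called gene at -0.25; the other 7 lie between -0.12 and 0.017, and the interval of Tnni3 is the widest.

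Against day 0, the 4-PBA libraries showed the same 8 genes called higher, against 33.2% of all tested genes called higher and 65.6% called in either direction. This comparison shares the day 0 libraries with the one above, so the values are given side by side only. The log2 fold changes over day 0 were 4.83 with 4-PBA and 5.08 with DMSO for Tnnt1, and 5.68 and 5.80 for Tnnt3. For Tnnt2 they were 3.38 and 3.39. The troponin I genes had 5.92 and 5.96 (Tnni1), 5.64 and 5.72 (Tnni2), and 1.22 and 1.20 (Tnni3). The troponin C genes had 5.18 and 5.26 (Tnnc1) and 6.41 and 6.40 (Tnnc2). The 8 genes took 0.273% ± 0.00814 (SD, n = 2) of all counts with 4-PBA.

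The balance of isoforms was followed as the log2 ratio of 2 genes of 1 subunit within each library, which depends on neither library scaling nor, for changes, gene length. During differentiation the fast gene gained on the slow gene for troponin T and C. The Tnnt3 to Tnnt1 ratio was 0.49 and 0.47 at day 0 and 1.18 and 1.22 with DMSO, a change of 0.72. The Tnnc2 to Tnnc1 ratio was -2.61 and -2.51 and then -1.42 and -1.40, a change of 1.15. For troponin I the ratio moved the other way: Tnni2 to Tnni1 was -0.98 and -1.16 at day 0 and -1.37 and -1.28 with DMSO, a change of -0.25. The cardiac genes lost ground, with changes of -1.69 for Tnnt2 to Tnnt1, -2.41 for Tnnt2 to Tnnt3, -4.78 for Tnni3 to Tnni1 and -4.53 for Tnni3 to Tnni2. In each of these 7 ratios the day 0 and DMSO libraries did not overlap. With 2 libraries against 2, the two-sided exact permutation test cannot go below p = 0.333, which all 7 reached (adjusted p = 0.368 over 21 ratios and comparisons), so none of these shifts can pass a threshold of 0.05.

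Between DMSO and 4-PBA the ratios moved far less. Tnnt2 to Tnnt1 was 1.80 and 1.81 with DMSO and 2.08 and 2.03 with 4-PBA, a change of 0.25, or 9.26 times the pooled SD. Tnnt3 to Tnnt1 was 1.18 and 1.22 and then 1.35 and 1.32, a change of 0.13, or 6.05 times the pooled SD. The pooled SD rests on 2 libraries a group, so these multiples are themselves uncertain. Both ratios have Tnnt1, the called gene, below the line. Smaller changes without overlap were 0.12 for Tnnt2 to Tnnt3, 0.080 for Tnnc2 to Tnnc1 and 0.11 for Tnni3 to Tnni2. Tnni3 had 81 and 111 raw counts with DMSO and 84 and 91 with 4-PBA, so counting error weighs on its ratios. Tnni2 to Tnni1 (change -0.043; exact permutation p = 0.667) and Tnni3 to Tnni1 (change 0.064; exact permutation p = 1) overlapped. The 5 ratios that did not overlap were at the smallest possible exact permutation p, 0.333.

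**Figure D4:**
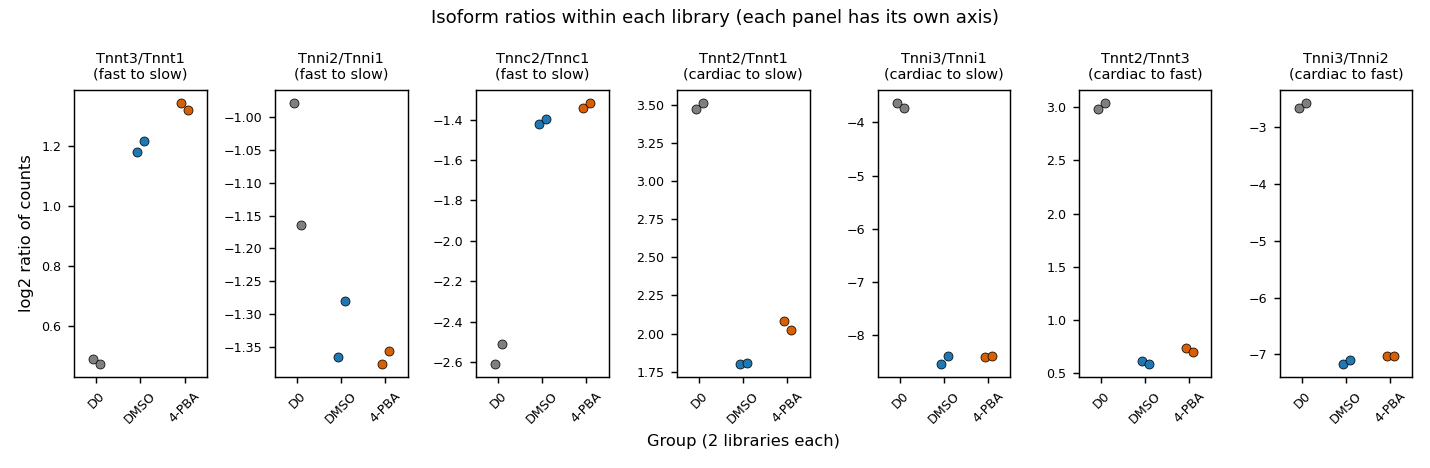
Log2 ratio of the counts of 2 isoforms of a subunit in each of the 6 libraries, 1 panel per ratio, each with its own y axis. Tnnt3 to Tnnt1 and Tnnc2 to Tnnc1 are higher at day 4 than at day 0 and the other 5 ratios are lower; 4-PBA lies above DMSO without overlap in 5 panels.

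To compare different genes, CPM was divided by length in kilobases. The length was first that of the longest GENCODE M21 transcript, which for Tnnt2, Tnni1 and Tnni2 is one not typed there as protein-coding (3330 bases against 1200 for the longest coding transcript of Tnnt2, 2153 against 1150 for Tnni1 and 895 against 768 for Tnni2). Shares by the coding transcript, an alternative added after the lengths were seen, are therefore given beside it. Within troponin T, Tnnt2 made up 60.2% ± 0.596 (SD, n = 2) of the subunit at day 0 by the longest transcript and 80.8% by the coding one. With DMSO its share was 25.4% or 48.6%, and with 4-PBA 27.5% or 51.3%. Tnnt3 went from 23.0% to 51.6% by the longest transcript, and from 11.1% to 35.6% by the coding one. Which of the 2 led at day 4 thus depended on the length used, while the fall of the Tnnt2 share and the rise of the Tnnt3 share from day 0 appeared with both. The Tnnt1 share was 16.8%, 22.9% and 20.9% at day 0, with DMSO and with 4-PBA by the longest transcript, and 8.12%, 15.8% and 14.0% by the coding one.

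Tnni1 and Tnni2 were close to parity by the longest transcript, at 50.8% and 48.8% with DMSO and 51.5% and 48.1% with 4-PBA. By the coding transcript Tnni1 led, with 62.4% against 37.4% with DMSO. The Tnni3 share of troponin I went from 7.80% at day 0 to 0.339% with DMSO and 0.359% with 4-PBA by the longest transcript, and from 5.36% to 0.222% and 0.235% by the coding one. Tnnc1 was the main troponin C throughout, with 85.2% at day 0, 72.1% ± 0.276 (SD, n = 2) with DMSO and 70.9% ± 0.259 with 4-PBA, the remainder being Tnnc2.

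**Figure D5:**
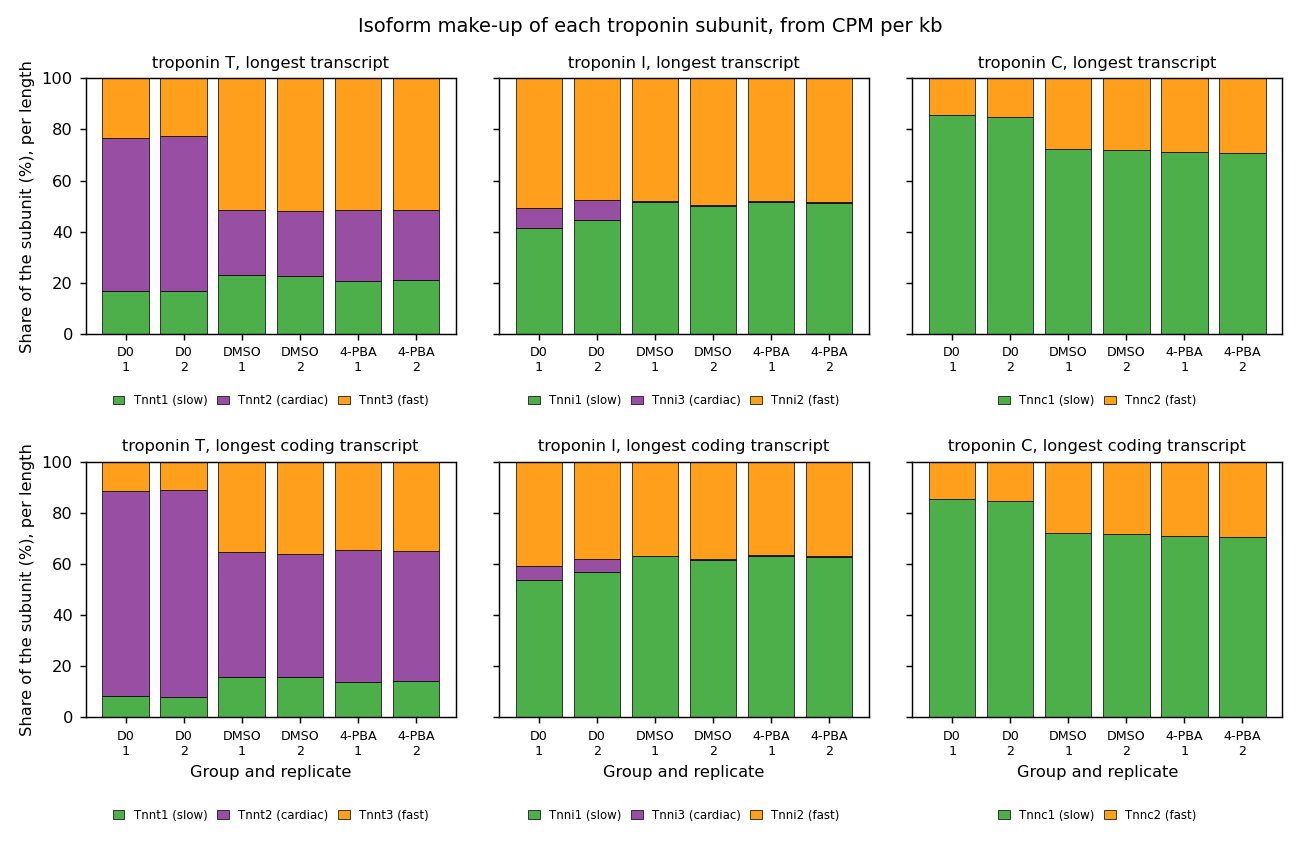
Share of each gene in its troponin subunit (%, from CPM per kb) in each library, by the longest transcript (upper row) and the longest coding transcript (lower row); green is slow, purple cardiac and orange fast. The Tnnt2 share shrinks from day 0 to day 4 in both rows, Tnni3 nearly vanishes, and the DMSO and 4-PBA bars are alike in height, with a mean Tnnt2 share of 25.4% and 27.5% in the upper row.

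By level per length with DMSO, Tnnc1 came first at 742 CPM per kb by the longest transcript, followed by Tnnt3 at 450.3 and Tnnc2 at 288. Tnni1 (228), Tnnt2 (222), Tnni2 (219) and Tnnt1 (199.7) followed, and each overlapped its neighbour in this order, although Tnni1 and Tnnt2 both lay wholly above Tnnt1. Tnni3 was last at 1.52. With 4-PBA the order was the same, of neighbours only Tnni1 and Tnnt2 overlapped, and Tnnt1 was at 167. At day 0 the order was Tnnt2 (21.2), Tnnc1 (19.3), Tnnt3 (8.09), Tnnt1 (5.91), Tnni2 (4.15), Tnni1 (3.64), Tnnc2 (3.36) and Tnni3 (0.659), and of neighbours only Tnni1 and Tnnc2 overlapped. The first place at day 0 depended on the length. By the union of exons Tnnc1 (13.4) lay above Tnnt2 (9.09), and by the coding length Tnnt2 (58.7) lay above Tnnc1 (19.3). With the coding length Tnnt2 moved to the second place with DMSO at 615 CPM per kb, after Tnnc1. Summed per length, troponin C reached 1030 ± 49.5 CPM per kb (SD, n = 2) with DMSO, troponin T 872 ± 69.9 and troponin I 449 ± 23.8. With the coding length troponin T was at 1265 ± 98.5 and troponin I at 684 ± 32.9, so the order of T and C depended on the length. With 4-PBA the sums by the longest transcript were 992 ± 39.4, 802 ± 19.7 and 430.3 ± 21.2.

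The genes around the pairs did not all move with them. On chromosome 7, Tnnt1 had a log2 fold change of 5.08 with DMSO over day 0 and its neighbour Tnni3 one of 1.20. Their outer neighbours Ppp1r12c (-0.073) and Dnaaf3 (0.12) were not called. On chromosome 1, Tnni1 rose by 5.96 and Tnnt2 by 3.39, and Lad1 between them rose by 3.51 from 0.0823 and 0.0855 CPM to 0.887 and 1.06 CPM. Outside that pair, Phlda3 rose by 0.17 and Pkp1 by 0.48. On chromosome 7, Tnni2 (5.72) and Tnnt3 (5.80) enclose Lsp1, which rose by 1.67, and the non-coding Prr33, at 0 to 0.435 CPM. Prr33 rose by 3.10 (adjusted p = 0.00132 in edgeR), from 4 and 0 raw counts at day 0 to 17 and 26 with DMSO. Beyond Tnni2 and Tnnt3, Syt8 rose by 4.95 and Mrpl23 (0.096) was not called. Between 4-PBA and DMSO, Pkp1 fell by 0.14 (adjusted p = 0.0465 in edgeR) and the other 8 neighbours were not called.

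The 3 genes most like each troponin gene over the 6 libraries, by the distance between centred log2 CPM profiles, came from 12788 candidates. For Tnnt1 these were Myl1, a fast myosin light chain, at a distance of 0.133, Itgb1bp2 (0.181) and Gm36377 (0.230). For Tnnt2 they were Cd200 (0.0899), Frem1 (0.167) and Sema3c (0.178). Tnnt3 had Cacna1s, the calcium channel of the T-tubule (0.190), Coq8a (0.194) and C1qtnf3 (0.208). Tnni2 shared 2 of these, with C1qtnf3 (0.176), Myh4 (0.188), a fast myosin heavy chain, and Coq8a (0.210). Tnni1 had Cacna1s (0.202), Filip1 (0.272) and Mybph (0.286). Tnni3 had Nipal3 (0.0926), Nexn (0.112) and Zbtb18 (0.113). Tnnc1 had Myog, the myogenic factor myogenin (0.134), Dcn (0.237) and R3hdml (0.262). Tnnc2 had Abra (0.255), the sarcomeric Actc1 (0.257) and Lmod2 (0.264). Ranked by Pearson's correlation, 0 of these 24 choices came back, so the names depend on the measure.

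Genes that work beside troponin were read from 6 lists, 147 genes of which 137 were tested; a gene can stand in more than 1 list. With DMSO over day 0, 100 of them were called higher and 25 lower, with a median log2 fold change of 1.40 (33.8% and 32.6% of all tested genes were called higher and lower). Of 17 slow fibre genes 16 rose and 1 fell, of 20 fast fibre genes 16 rose and 2 fell, and of 11 developmental and cardiac-type sarcomere genes 9 rose and none fell. Of 24 calcium handling genes 20 rose and 4 fell, and of 30 thin filament partners 18 rose and 9 fell. Of 42 transcription factors and related genes 26 rose and 11 fell. The thin filament genes that fell included the cytoplasmic actins Actb (-0.43) and Actg1 (-0.46), and those that rose included the skeletal and cardiac actins Acta1 (5.50) and Actc1 (6.46).

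Between 4-PBA and DMSO, 3 of the 137 were called higher and 25 lower, with a median log2 fold change of -0.049 (2.13% and 2.78% of all tested genes were called higher and lower). Of the 20 fast fibre genes 8 fell in edgeR and DESeq2 and 9 in limma-voom. None was called higher by these tools or was higher at an unadjusted p under 0.05. Casq1, the calcium store of fast fibres, was at 20.6 and 21.3 CPM with DMSO and at 13.3 and 12.3 CPM with 4-PBA (-0.71 ± 0.084 SE on the log2 scale, edgeR adjusted p = 8.53e-07). Atp2a1, the fast calcium pump, fell from 210.3 and 216 CPM to 169 and 169 CPM (-0.34), and Eno3, muscle enolase, fell by 0.19. Of the 17 slow fibre genes 2 fell in edgeR, Myh7, the slow myosin heavy chain (-0.45), and Myl6b, a slow light chain (-0.20). No slow gene was called higher in this edgeR fit or in DESeq2, and 1 was higher at an unadjusted p under 0.05. Limma-voom called 1 higher, as did edgeR with no filter beyond 1 count, with only the compared libraries, and without either day 0 library or DMSO replicate 2. The 2 lower slow genes became 4 with no filter beyond 1 count and 1 at a threshold of 0.01. Of the 24 calcium handling genes 7 fell, among them the release channel Ryr1 (-0.25), and 2 rose, the calmodulin genes Calm2 (0.10) and Calm3 (0.11). Those 2 higher calls became 1 with the replicate block, with no filter beyond 1 count or without DMSO replicate 2. They became 0 with only the 4 compared libraries fitted, at a threshold of 0.01, and without either day 0 or either 4-PBA library.

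Of the 30 thin filament partners 6 fell and 1 rose. Neb, which encodes nebulin along the actin filament, fell from 456 and 489 CPM to 359 and 364 CPM (-0.39 ± 0.035 SE, edgeR adjusted p = 1.94e-08). Actc1 (-0.22) and Nrap (-0.24) also fell, and Tpm1, a tropomyosin to which troponin T binds, rose by 0.12. Of the 11 developmental and cardiac-type genes 2 fell, Actc1 and Myh6 (-0.48). Of the 42 transcription factors and related genes 3 fell in edgeR. In this list 0 were called higher in this fit, DESeq2 or limma-voom, though 4 were higher at an unadjusted p under 0.05. In edgeR 1 was called higher with scaling by library size only, with no filter beyond 1 count, or with only the compared libraries. Higher calls in this list also appeared without DMSO replicate 2. Those that fell were Tbx15 (-0.24), Hdac4 (-0.18) and Tead4 (-0.15). The counts moved with single libraries. Lower calls over all lists went from 25 to 10 without 4-PBA replicate 1 and to 36 without DMSO replicate 1, and the 3 higher calls to 0 without either 4-PBA library and to 8 or 6 without DMSO replicate 1 or 2. With 4-PBA replicate 1 or DMSO replicate 1 left out, lower calls were 2 or 10 among thin filament partners, 5 or 10 among fast, 1 or 4 among slow and 3 or 11 among calcium handling genes. The 3 lower transcription factors and related genes became 1 with DESeq2 and at a threshold of 0.01. Fewer of them were called lower without DMSO replicate 2 or either 4-PBA library, and fewer developmental genes without 4-PBA replicate 1.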

How the data were processed

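RNA of C2C12 cells was sequenced in 6 libraries, and per the labels' protocols libraries were made from DNase-treated total RNA with a directional kit. The deposited table holds raw counts per gene symbol made by the authors, neither normalised nor pooled. GRCm39 is named in the submitters' processing notes, and the aligner, counter, annotation and use of strand are not given in the sources used here. Lengths and overlaps came from GENCODE M21 and promoter windows from RefSeq, both GRCm38. The coordinates of the printed windows are therefore of that build, not of GRCm39, and no other gene coordinates are given.

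Counts were fitted with edgeR 4.0.16 in R 4.3.3: filterByExpr by group, TMM, 1 mean per group over all 6 libraries, estimateDisp and robust glmQLFit. F tests were adjusted by Benjamini-Hochberg over 17433 genes, and an adjusted p under 0.05 was called. CPM values are TMM-scaled. The standard error is the log2 fold change divided by the square root of F. Residual degrees of freedom were 3, the median prior degrees of freedom 30.4 and the common coefficient of variation 3.74%. Replicates differed beyond sampling noise (chi-square per degree of freedom 3.98 for day 0, 7.15 for DMSO, 5.71 for 4-PBA). At day 0 the counts of the members, from 28 for Tnni3 to 4936 for Tnnt2, add counting error to the comparisons with day 0. Ratios had 0.5 added to both counts, and pattern profiles a prior count of 2. Scripts were tested on simulated data.

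Named were all 8 members, the 3 genes most alike to each at a mean of at least 1 CPM, their neighbours, and up to 3 called genes a list, taken by adjusted p between 4-PBA and DMSO; the actins, calmodulins and Tpm1 were added after their values were seen. Members and lists were chosen with earlier results of these data known. The alternatives tried were scaling by library size alone or by size factors of DESeq2, 2 filters, DESeq2 1.42.0, limma-voom (limma 3.58.1), the compared libraries only, a replicate block, a threshold of 0.01, other lengths, another likeness measure and each library left out.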

Additional observations from a re-analysis of the deposited data

How the results depend on the processing

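The 8 troponin genes were called higher at day 4 than at day 0 in all 15 alternatives of both comparisons. Between 4-PBA and DMSO, Tnnt1 was called lower in all 15, with adjusted p from 1.62e-11 to 0.0222 (edgeR, DESeq2 or limma-voom), and no member was called higher. The number of members called lower was 1 in 13 alternatives, 2 with no filter beyond 1 count (Tnnt3, -0.12, adjusted p = 0.00452) and between 1 and 4 with a library left out, with 4 without DMSO replicate 1. The cause was not tested. Scaling by library size only turned Tnnt2 to 0.0046. With each library left out, log2 fold changes ranged from -0.078 to 0.073 for Tnnt2, -0.21 to -0.028 for Tnnt3, -0.086 to 0.0050 for Tnni1, -0.16 to -0.0052 for Tnni2, -0.087 to 0.14 for Tnni3, -0.12 to -0.030 for Tnnc1 and -0.056 to 0.064 for Tnnc2. A left-out library leaves a group with 1 sample, which is assumed to vary like the other groups. The 855 genes called in all became 424 at a threshold of 0.01, and 295 to 1194 with a library left out (leaving out 4-PBA replicate 1 gave 341, and replicate 2 gave 295). The Tnni3 to Tnni1 ratio changed by -0.013 to 0.14 with a library left out. Replicate numbers were shared by the groups. Deviations from the group means correlated at 0.046, -0.085 and -0.088 over 10681 genes for the 3 pairs of groups. With 2 libraries a group, these values cannot show whether libraries of the same number share an origin. With the replicate block, Tnnt1 stood at -0.25 (adjusted p = 9.68e-05 in edgeR), Tnnt3 at -0.12 (adjusted p = 0.0670), 768 genes were called and no call of a member changed. The place of members in the order per length changed for 6, 3 and 2 members at day 0, with DMSO and with 4-PBA by the union of exons, and for 3, 3 and 4 by the coding transcript, because these lengths differ. By Pearson's correlation 0 of the 24 most alike genes were the same, and 20 at a mean of at least 10 CPM.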
